A study of Mus musculus with 118 samples.

Results

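The genes described here are Ifit2 and 6 further genes of the type I interferon response, Ifit1, Ifit3, Irf7, Irf9, Stat2 and Bst2, which are 7 of the 23998 gene symbols in the deposited table of read counts. They were read in single somatostatin-positive (SOM+) cells of mouse neocortex by Patch-seq, in which a neuron is recorded with a patch pipette and its aspirated contents are then sequenced. The labels place each cell in layer 4 (L4) or layer 5 (L5) of primary visual cortex (V1) or primary somatosensory cortex (S1). All cells came from SOM-Cre/Ai9 mice, in which cells that have expressed Cre from the somatostatin locus carry a red fluorescent protein, a line that can also label some fast-spiking cells. The mice were adult, no treatment is named, the cells were reached in acute slices, and the labels give neither an age nor an animal for a single cell. All but 9 sequenced cells were kept: 34 of 39 for S1 L4, 42 of 44 for V1 L4, 16 of 16 for S1 L5 and 17 of 19 for V1 L5. Kept cells had at least 1500 genes with a read, no more Slc17a7 than Gad1 and Gad2 reads together, and at least 1 Sst read.

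Ifit2 was chosen because of its measured difference between S1 and V1 in the L4 cells of this table, and it is also among the genes that a regression model of the study selected on these cells. Its own L4 values are therefore given as a description. The other 6 were chosen for their place in the pathway, but with earlier results of these data known, so their values are a description too. Because no label ties a cell to an animal, each area and layer counted as 1 sample and no test was run. The spread given beside a difference is the SD over the dates in the cell titles, called days here. The study names 6 mice for Patch-seq, fewer than the 9 days, so the days are not all separate animals. There were 9 days in 2 runs: days 1 to 6 held all L5 cells, and days 7 to 9 followed later in the same year and held L4 cells only.

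Type I interferons are secreted proteins that bind the receptor pair Ifnar1 and Ifnar2. The kinases Jak1 and Tyk2 then phosphorylate STAT proteins, and Stat2 joins Irf9 in a complex that enters the nucleus and binds interferon-stimulated response elements in front of its target genes. The targets include Irf7, a transcription factor that amplifies interferon production, Bst2 (tetherin), a membrane protein that holds budding virus particles at the cell surface, and the Ifit genes. The Ifit proteins are built of tetratricopeptide repeats and bind RNA or one another, and Ifit1 recognises foreign RNA by its cap. Neurons can respond to interferon, and microglia and endothelial cells are known for strong interferon responses in brain.

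The 3 Ifit members lie in a single cluster on chromosome 19. In the GENCODE M21 annotation of GRCm38 (the mm10 assembly to which the authors aligned), Ifit2 spans chr19:34550694-34576419, Ifit3 chr19:34583531-34588731 and Ifit1 chr19:34640871-34650009, all on the plus strand. Ifit1bl1, Ifit3b and Ifit1bl2 lie between Ifit3 and Ifit1, and the count table holds them under the older names Gm14446, I830012O16Rik and 2010002M12Rik. Irf9 lies at chr14:55603571-55610030 (plus), Stat2 at chr10:128270559-128292849 (plus), Irf7 at chr7:141262706-141266481 (minus) and Bst2 at chr8:71534255-71537456 (minus). The annotation has Irf9 overlapping an exon of Rnf31 on the same strand and Irf7 overlapping an exon of Phrf1 on the other strand. The library protocol does not mark strand, so reads of Irf7 and Phrf1 cannot be told apart in that overlap.

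The 250 bases before the start sites were compared because the members share a regulator. The core letters of the interferon-stimulated response element, GAAANNGAAA, were searched on both strands. Capitals mark the matches in the windows below, which are RefSeq sequences of GRCm38.p6 in the direction of transcription. They run from 250 bases to 1 base before the start, and matches read TTTCNNTTTC where the motif is on the other strand. Ifit2 is shown as the member with the largest difference between areas, Ifit1 and Ifit3 as its neighbours, and Bst2 as a member with matches but few reads.
Ifit2 (chr19:34550444-34550693, plus): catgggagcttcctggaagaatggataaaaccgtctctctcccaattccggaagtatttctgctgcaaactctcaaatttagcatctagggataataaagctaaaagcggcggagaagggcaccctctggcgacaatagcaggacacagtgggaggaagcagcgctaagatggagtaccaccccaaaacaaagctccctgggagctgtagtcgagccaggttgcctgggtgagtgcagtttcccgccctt
Ifit1 (chr19:34640639-34640888, plus): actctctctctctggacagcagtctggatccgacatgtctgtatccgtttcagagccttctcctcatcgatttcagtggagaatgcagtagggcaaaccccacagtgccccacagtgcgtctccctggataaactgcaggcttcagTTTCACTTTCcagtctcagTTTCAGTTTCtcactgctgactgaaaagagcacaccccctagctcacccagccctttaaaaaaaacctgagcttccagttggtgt
Ifit3 (chr19:34583279-34583528, plus): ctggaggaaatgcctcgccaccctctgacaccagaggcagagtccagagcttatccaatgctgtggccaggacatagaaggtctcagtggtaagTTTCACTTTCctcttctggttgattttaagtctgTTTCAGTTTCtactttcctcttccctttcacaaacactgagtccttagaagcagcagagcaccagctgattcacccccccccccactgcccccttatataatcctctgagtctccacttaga
Bst2 (chr8:71537473-71537722, minus): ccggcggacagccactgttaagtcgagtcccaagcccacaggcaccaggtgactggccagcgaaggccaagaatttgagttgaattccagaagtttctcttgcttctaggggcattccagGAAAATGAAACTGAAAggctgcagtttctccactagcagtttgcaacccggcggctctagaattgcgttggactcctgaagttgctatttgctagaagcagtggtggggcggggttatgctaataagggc
Ifit1 and Ifit3 held 2 separate matches each, and Bst2 held 2 matches that overlap. Stat2 held 1 match. Neither of the 2 start sites listed for Ifit2 had a match, nor did Irf7 or either start of Irf9. Of all 32851 windows of this length 2.98% held the motif, and of 27025 genes 3.46% had it in at least 1 window. Among the other genes of the interferon lists used here that matched a window, 37 (33.9%) had it. These are exact letters in a window, so an element with variant letters or outside the window would be missed, and no binding was measured.

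**Figure D1:**
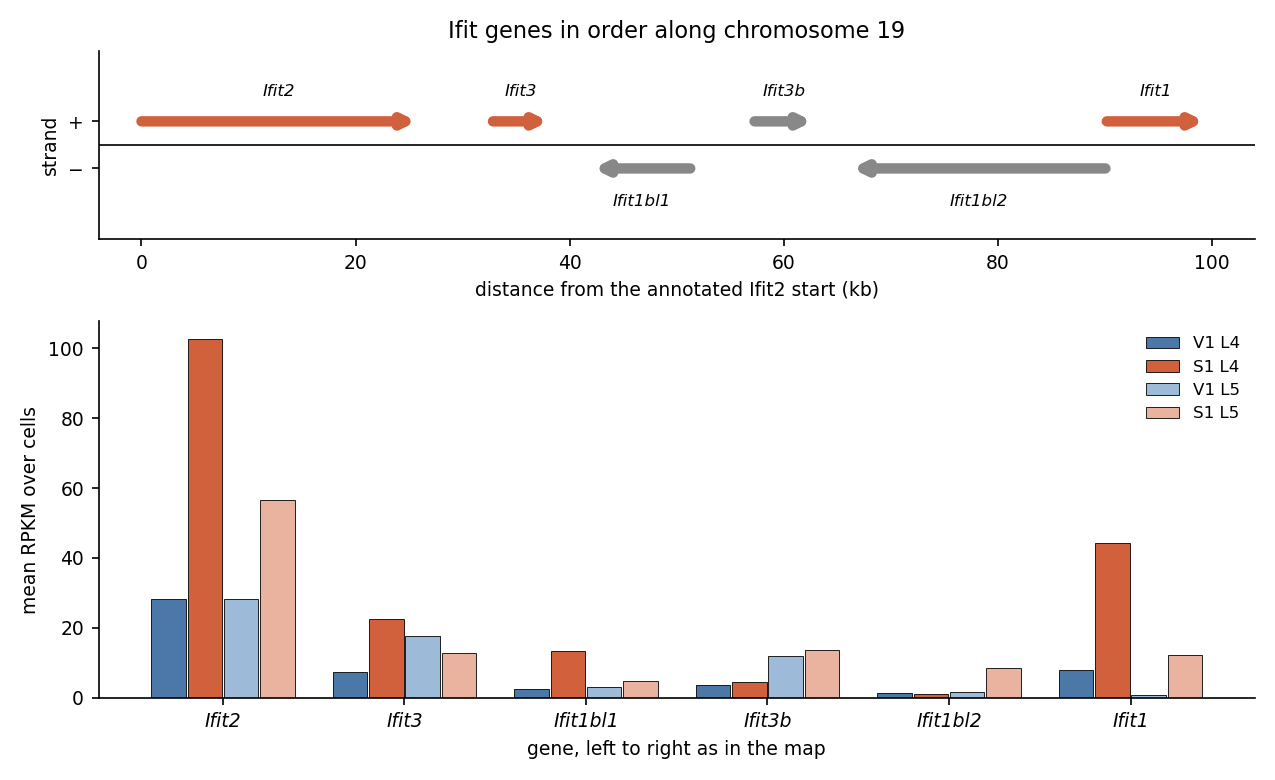
Map of the Ifit genes by distance in kb from the annotated Ifit2 start (arrows point in the direction of transcription, members in orange, other genes in grey), above the mean RPKM over the kept cells of each group in the same gene order. Bars carry no error. Ifit2, Ifit3, Ifit1bl1 and Ifit1 have their tallest bar in S1 L4 (102.6, 22.5, 13.4 and 44.3 RPKM). Ifit3b and Ifit1bl2 have it in S1 L5, where they were read in only 4 and 1 of 16 cells.

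Per length, Ifit2 was the most abundant of the 7 members in every group. Its mean deposited RPKM, which divides reads by transcript length and library size, was 102.6 ± 33.5 (SD over 8 days) for S1 L4 and 56.5 ± 28.3 (4 days) for S1 L5. The V1 means were 28.1 ± 37.9 (8 days) for L4 and 28.3 ± 12.7 (4 days) for L5. Averaged over the 4 groups, Ifit2 stood at 53.9 RPKM, Ifit1 at 16.3, Ifit3 at 15.1, Stat2 at 11.1, Irf9 at 5.84, Bst2 at 2.83 and Irf7 at 0.275. Ifit1 and Ifit3 were closer to each other in each group than the larger of their SDs over days, also in V1 L5, where Ifit1 stood at 0.927 ± 2.63 RPKM and Ifit3 at 17.7 ± 20.7. For scale, Jak1, the receptor kinase, averaged 68.4 RPKM and Isg15, a ubiquitin-like protein that is a hallmark of the interferon response, 0.0422.

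Ifit2 was high or absent in a cell more often than at an intermediate level. In V1 L4 its level ran from 0 to 10.46 log2(CPM + 1), where CPM is a gene's reads scaled to a common total per cell, with a median of 1.24 over 42 cells. In S1 L4 it ran from 0 to 10.41 with a median of 8.38 over 34 cells. For L5 the median over 16 S1 cells was 7.27 with a highest cell at 9.65, and the median over 17 V1 cells was 2.80 with a highest cell at 8.65. The 4 ranges overlap over most of their length, and every group held cells at 0 and cells above 8. What differed was the number at each end. In V1 L4, 19 cells had no read, 5 had 1 to 31 reads and 18 had 32 or more. In S1 L4 the corresponding numbers were 4, 3 and 27.

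At least 1 Ifit2 read was found in 23 of 42 V1 L4 cells (54.8%, exact 95% interval 38.7 to 70.2) and in 30 of 34 S1 L4 cells (88.2%, 72.55 to 96.7). For L5 the shares were 10 of 16 S1 cells (62.5%, 35.4 to 84.8) and 9 of 17 V1 cells (52.9%, 27.8 to 77.0). The intervals cover counting error only, since cells of one animal are not independent and reads carry no molecular identifier. After each cell was thinned to 250000 reads the shares in L4 were 45.2% and 85.3%, and in L5, where 15 cells of each area were deep enough, 53.3% and 66.7%. Among cells with a read, the mean level in L4 was 7.79 for S1 and 6.04 for V1 on the log2(CPM + 1) scale, against 8.07 and 6.94 in L5. In L4 the S1 cells were thus higher both in how many had a read and in the level of those that did. In L5 the order of the shares rested on day 4, without which they were 54.5% in S1 and 57.1% in V1.

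**Figure D2:**
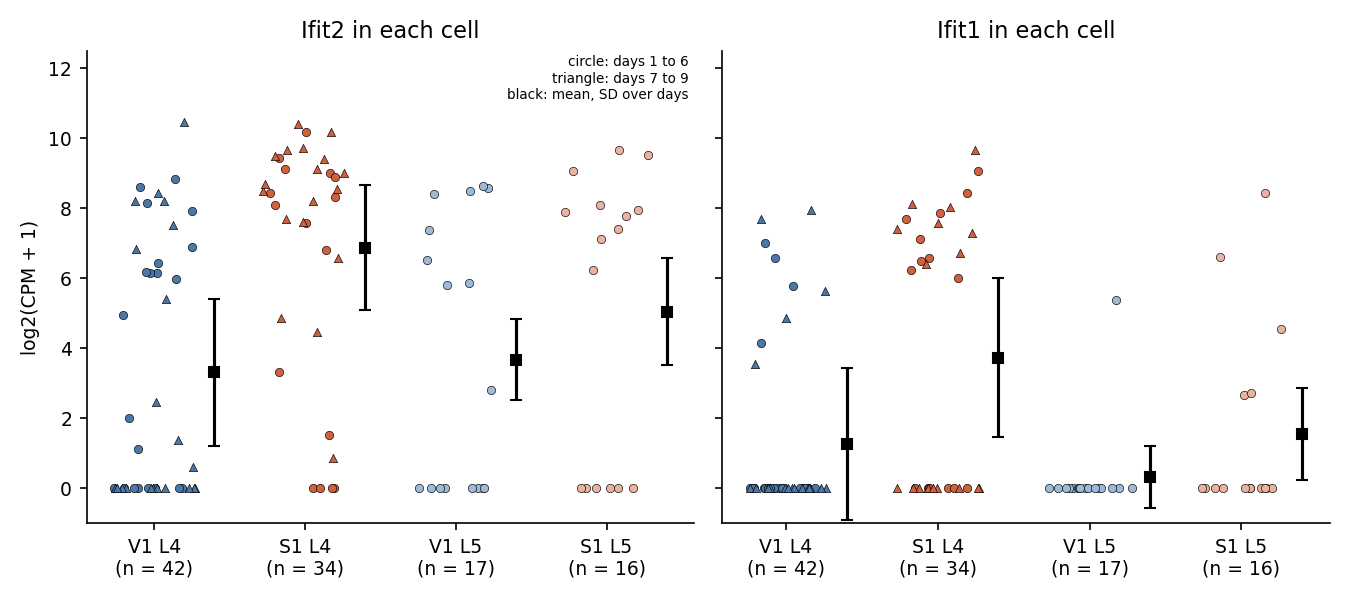
Level of Ifit2 (left) and Ifit1 (right) in each kept cell, as log2(CPM + 1), by area and layer; circles are days 1 to 6, triangles days 7 to 9, and black squares with bars the mean over cells and the SD over days. Cells of S1 L4 lie mostly near or above 8 for Ifit2, while V1 L4 cells are spread between 0 and 10.46.

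The mean level of Ifit2 was 6.88 in S1 L4 and 3.31 in V1 L4, a difference of 3.57 on the log2(CPM + 1) scale with an SD of 2.53 over the 5 days that had at least 2 cells of each area. S1 was higher on 5 of those 5 days. The difference was 0.34 on day 2, 0.79 on day 3, 5.93 on day 5, 4.76 on day 7 and 4.50 on day 8. In that order the days held 4, 6, 2, 9 and 2 S1 cells and 11, 2, 3, 12 and 9 V1 cells, so some rest on very few cells. The direction was shared and the size was not. V1 L4 stayed between 2.73 and 3.83 on these days, and S1 L4 ranged from 4.18 on day 2 to 8.66 on day 5. In the first run S1 and V1 differed by 1.89, with a read in 12 of 16 and 13 of 21 cells, and in the second run by 5.12, with a read in 18 of 18 and 10 of 21 cells. In L4, 763 of 9993 genes that passed a filter of 32 or more reads in 10 or more cells (7.64%) were higher in S1 by 1 or more on this scale, 7.29% were lower by as much, and 2.64% were higher on all 5 days.

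A single V1 L4 cell of day 8 held 2673 of the 6535 Ifit2 reads of its group (40.9%). Pooled over cells, Ifit2 made up 122.96 CPM in V1 L4 (exact Poisson interval 120 to 125.98) and 401 CPM in S1 L4 (395 to 407), again counting error only. Without the top cell of each group these were 75.4 and 370.4 CPM. The V1 level thus rested in large part on 1 cell, and the S1 level did not. In L5 the pooled values were 276 CPM for S1 and 128.3 CPM for V1.

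In L5 the mean level of Ifit2 was 5.04 in S1 and 3.68 in V1. S1 exceeded V1 by 1.37, within the SD of 1.79 between days, although its mean was higher on 4 of 4 days. Day 4 gave 3.97, and days 3, 5 and 6 gave 0.18, 0.47 and 0.54. Without day 4 the difference was 0.39, so this day carried most of it. In L5, 21.6% of the 9993 genes were higher in S1 by 1 or more, 8.96% were lower by as much and 8.65% were higher on every day, and the median gene was 0.22 higher in S1, against 0.01 in L4. Whether the area difference of Ifit2 differs between L4 and L5 was not tested.

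Between layers, compared within the first run only, the differences of Ifit2 were within their spread in S1 and changed with the matching of days in V1. In S1 the mean was 5.04 in L5 and 5.67 in L4 (difference -0.63, SD 2.75 over 3 days). The mean within those days was -1.33, and the difference ran from -1.44 without day 3 to 0.16 without day 5. In V1 the mean was 3.68 in L5 and 3.78 in L4 (difference -0.10). On the 2 days that V1 L4 and V1 L5 share, however, L5 was higher, by 1.29 on average (SD 0.31), with 2 V1 L4 cells on one day and 3 on the other. In order of mean level the groups were S1 L4, S1 L5, V1 L5 and V1 L4. S1 L4 and S1 L5, and S1 L5 and V1 L5, differed by less than their spread over shared days, while V1 L5 stood above V1 L4 over all cells (3.68 and 3.31) and on shared days but not over the whole first run. The ends of the order, S1 L4 and V1 L4, are the pair with the difference of 3.57.

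**Figure D3:**
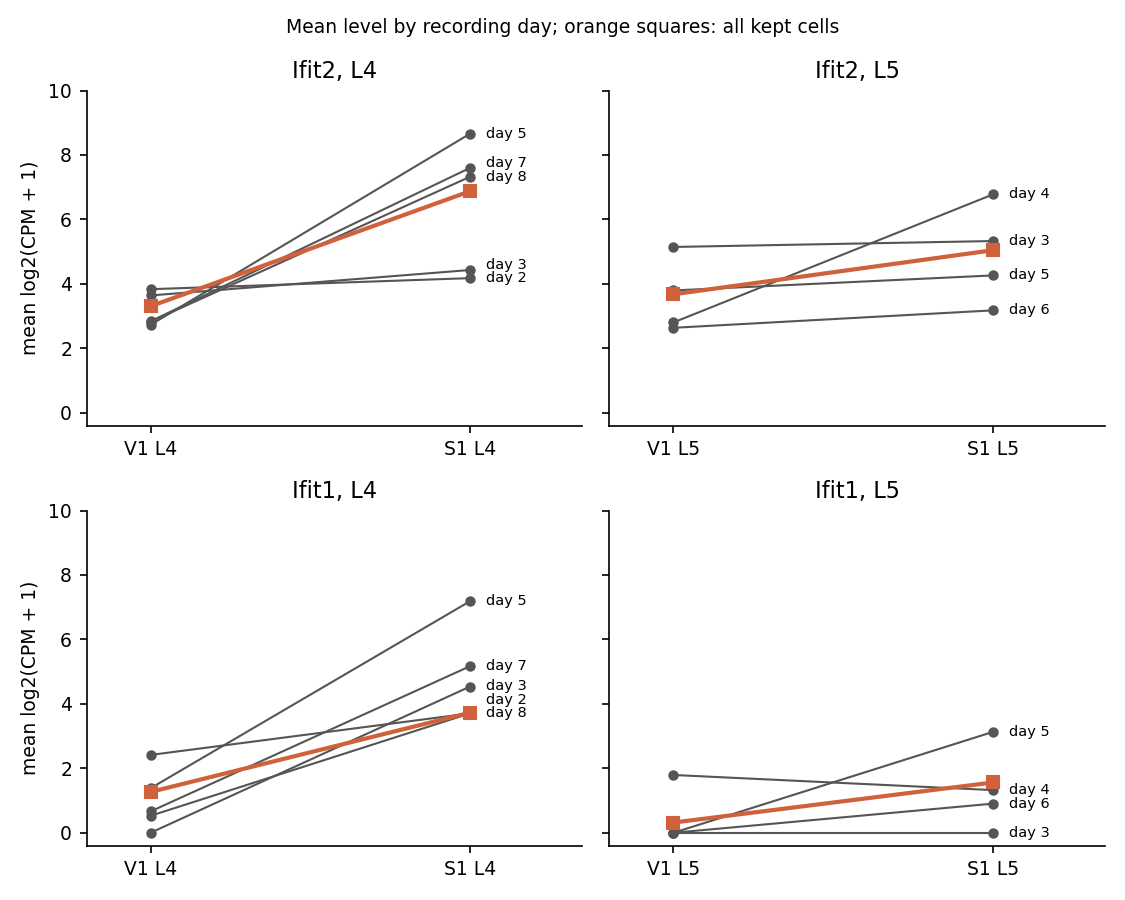
Mean log2(CPM + 1) of Ifit2 (top) and Ifit1 (bottom) in V1 and S1 on each day with at least 2 cells of both areas (grey lines), in L4 (left) and L5 (right), with the means over all kept cells in orange. For Ifit2 every grey line ends higher in S1, with steps from 0.18 to 5.93; for Ifit1 in L5, day 4 ends lower and day 3 is at 0 in both areas.

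Ifit1, the cap sensor at the far end of the cluster, was read in 9 of 42 V1 L4 cells (21.4%, exact 95% interval 10.3 to 36.8) and 17 of 34 S1 L4 cells (50.0%, 32.4 to 67.6). In V1 L4 the highest cell reached 7.95 log2(CPM + 1) with a median of 0, and in S1 L4 the highest cell reached 9.65 with a median of 2.998. The mean was 3.73 in S1 L4 and 1.27 in V1 L4, a difference of 2.46 with an SD of 1.71 over 5 days. S1 was higher on 5 of 5 days, from 1.29 on day 8 to 5.80 on day 5. The S1 L4 mean of Ifit1 was 4.09 in the first run and 3.40 in the second, and the V1 L4 mean 1.12 and 1.41, so the later run was not the higher one for Ifit1 in S1 as it was for Ifit2. In L5, Ifit1 was read in 1 of 17 V1 cells and 5 of 16 S1 cells, and the difference of 1.24 was within its SD of 1.60 and was 0.43 without day 5. In S1 of the first run Ifit1 was lower in L5 than in L4 by 2.53 (means 1.56 and 4.09, SD 1.52), on 3 of 3 days. In that comparison 21.4% of genes were higher in L5 by 1 or more and 9.4% were lower by as much. Of the 75-base stretches in annotated Ifit1 transcripts, 5.19% also occur in Ifit1bl2, so reads from those stretches cannot be assigned.

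Ifit3, an adaptor found in complexes with other Ifit proteins, had area differences within its spread. It was read in 11 of 34 S1 L4, 13 of 42 V1 L4, 7 of 16 S1 L5 and 8 of 17 V1 L5 cells. The S1 mean minus the V1 mean was 0.51 in L4 (SD 2.32), with 3 of 5 days higher, and -0.54 in L5 (SD 1.43), with 1 of 4 days higher. In cells with a read, the mean level was 6.71 in S1 L4 and 5.36 in V1 L4. Its near-copy Ifit3b holds 41.1% of the 75-base stretches of Ifit3, so the split of reads between them depends on the authors' counting. Ifit3b was read in 5 S1 L4, 7 V1 L4, 4 S1 L5 and 5 V1 L5 cells, and S1 differed from V1 by -0.14 in L4 and 0.04 in L5. Against L4 of the first run, V1 L5 was higher in Ifit3 by 1.24, but the mean of the differences within the 2 shared days was -0.44, and the pooled difference was 0.55 without day 2 and 0.68 without day 4. Of all genes, 19% were higher in L5 of V1 by 1 or more and 13.9% lower.

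The other genes of the cluster were read in few cells. Ifit1bl1 was read in 7 of 34 S1 L4 and 3 of 42 V1 L4 cells, with means of 1.39 and 0.45, but its mean difference within days was -0.53. Ifit1bl2 was read in 8 cells in all. All 4 groups had reads of all 6 genes of the cluster.

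Stat2 and Irf9, the interferon-specific parts of the transcription factor complex, were read in 53 and 29 cells in all. Stat2 was read in 16 of 42 V1 L4 and 19 of 34 S1 L4 cells, and its mean was 3.12 in S1 and 2.15 in V1. The difference of 0.97 about equalled its SD of 0.98, and S1 was higher on 5 of 5 days, by 0.24 to 2.50. Of the L5 cells, 12 of 16 in S1 and 6 of 17 in V1 had a Stat2 read, yet among cells with a read the S1 mean was lower (3.71 against 6.26). The L5 difference of 0.57 was within its SD of 1.90.

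Irf9 was read in 12 of 42 V1 L4 and 6 of 34 S1 L4 cells, and its mean difference in L4 was -0.23 (SD 1.12). Of the L5 cells, 7 of 16 in S1 and 4 of 17 in V1 had a read, with means of 1.96 and 0.84. That difference of 1.12 lay just within its SD of 1.13, with 4 of 4 days higher, 2 of them by 0.11 or less, and it was 0.71 without day 5. Of the members, 2 (Ifit1 and Ifit2) were thus higher in S1 L4 by 1 or more and 3 (Ifit1, Ifit2 and Irf9) in S1 L5, beside the 7.64% and 21.6% of all genes. Without day 4 the L5 count was 1. Ifit2 was chosen on the L4 value, so its place in that count is not a result. The other members were chosen with earlier results known, so both counts are a description.

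Irf7 and Bst2 were close to absent and did not pass the filter on low counts. Irf7 was read in 3 V1 L4 and 2 S1 L4 cells, never above 28 reads, and in none of the 33 L5 cells. A count of 0 allows up to 17.6% of V1 L5 and 18.8% of S1 L5 cells with a read. Bst2 was read in 3 V1 L4, 3 S1 L4 and 2 V1 L5 cells, with 255 reads in all, of which 76 came from 1 V1 L5 cell. No area difference of either gene could be detected at this depth.

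**Figure D4:**
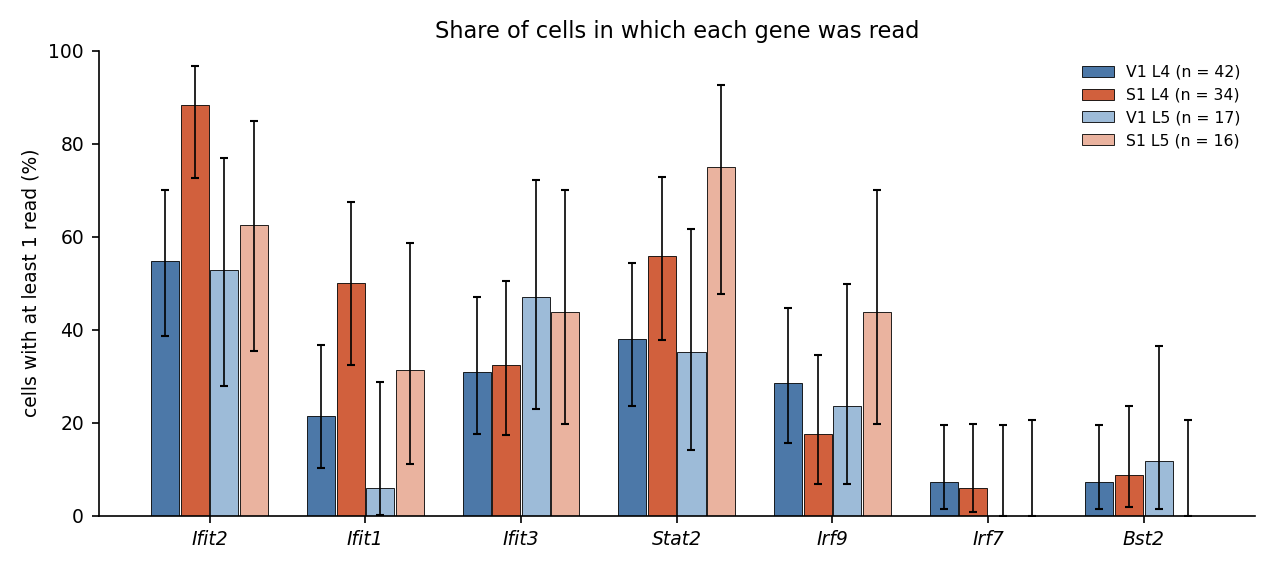
Share of kept cells with at least 1 read of each member, by area and layer; bars start at 0 and lines are exact 95% intervals of counting error. The S1 L4 bar stands above the V1 L4 bar most clearly for Ifit2 (88.2% against 54.8%) and Ifit1 (50.0% against 21.4%), and Irf7 and Bst2 stay at or under 11.8% in every group.

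Whether Ifit2 moved with the other members was examined cell by cell. In the 73 L4 cells from days with at least 2 cells of their area, after the mean of each area and day was subtracted, Pearson's r of Ifit2 was 0.37 with Ifit1, 0.21 with Ifit3, 0.11 with Bst2, 0.03 with Irf7, -0.15 with Stat2 and -0.18 with Irf9. With the sum of the other 6 members it was 0.02. These are descriptions over cells that share animals and days, and cells with more reads score higher on most genes. Ifit2 had r = 0.30 with detected genes in the same 73 cells, and the median r of Ifit2 over 9200 genes was 0.09. With detected genes Ifit3 had r = 0.53, Ifit1 0.36, Irf9 0.07 and Stat2 0.03. Ifit1 ranked 201 of 9200 by its r with Ifit2, and Stat2 and Irf9 ranked 8662 and 8853. In L5, where cells were fewer, r of Ifit2 with Ifit1 was -0.06 in 16 S1 cells and 0.32 in 17 V1 cells, while with detected genes it was 0.78 and 0.50.

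Detection in L4 was ordered in the same way. In V1 L4, Ifit2 was read in 8 of the 9 cells with an Ifit1 read and in 15 of the 33 without. In S1 L4 it was read in 16 of 17 with and 14 of 17 without. All 11 S1 L4 cells with an Ifit3 read also had Ifit2, and so did 19 of the 23 without. For Stat2 the order turned: in V1 L4, Ifit2 was read in 8 of 16 cells with Stat2 and in 15 of 26 without, and in S1 L4 in 16 of 19 with and 14 of 15 without. In S1 L5 both the Ifit1 and the Stat2 order were the other way, with Ifit2 in 3 of 5 cells with and 7 of 11 without Ifit1, and in 8 of 12 with and 2 of 4 without Stat2. In V1 L5 both were as in L4, with Ifit2 in 1 of 1 with and 8 of 16 without Ifit1, and in 2 of 6 with and 7 of 11 without Stat2. For Ifit3 the L5 numbers were 6 of 7 with and 4 of 9 without in S1, and 6 of 8 with and 3 of 9 without in V1. Returning to L4, 14 S1 L4 cells had Ifit2 but no Ifit1, and 19 had Ifit2 but no Ifit3. No cell had a read of more than 5 members, and 2 cells, 1 in each area of L4, had 5.

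**Figure D5:**
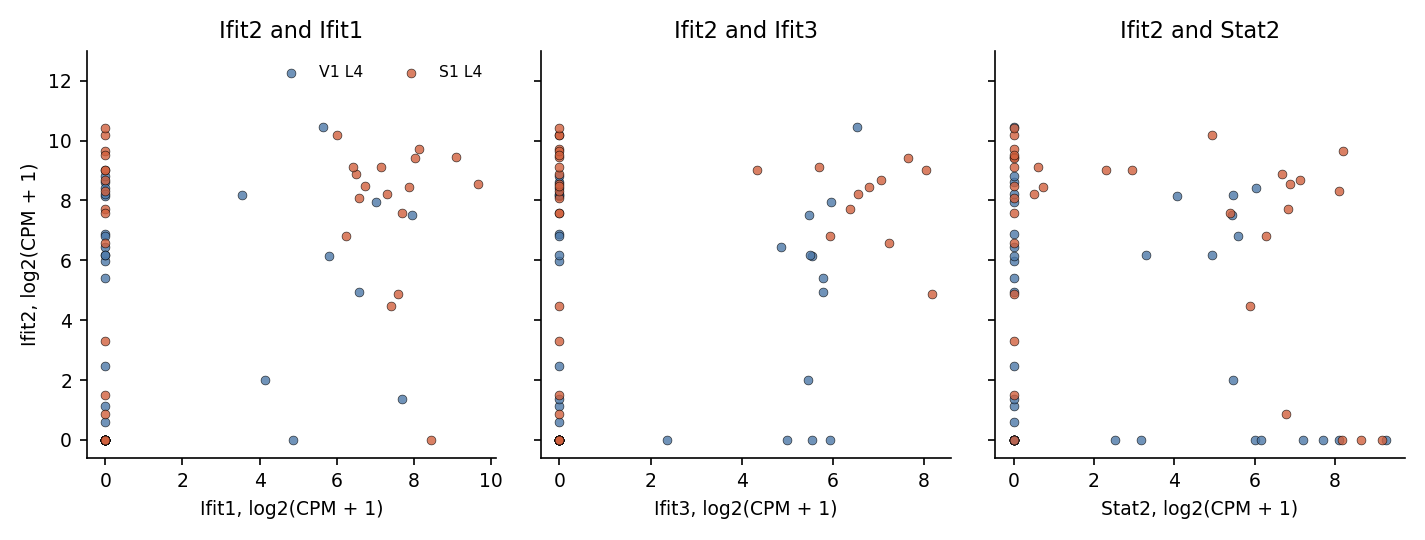
Ifit2 against Ifit1, Ifit3 and Stat2 in each L4 cell, all as log2(CPM + 1), V1 in blue and S1 in orange. Cells with an Ifit1 or Ifit3 read mostly sit high on the Ifit2 axis, a column of cells at 0 for these genes spans the whole Ifit2 axis, and cells high in Stat2 include cells without an Ifit2 read.

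The genes whose level followed Ifit2 most closely in those 73 cells were Ghitm (r = 0.55), which encodes an inner mitochondrial membrane protein, Trim32 (0.52), a ubiquitin ligase, Rpe (0.52), an enzyme of the pentose phosphate pathway, Tmem60 (0.51) and Ubl7 (0.51). None is a member of the interferon lists. All 5 also followed the number of detected genes, with r from 0.39 for Tmem60 to 0.68 for Ubl7. The lowest were Thoc1 (-0.49), of the mRNA export complex THO, Syne1 (-0.41), a nuclear envelope protein, and Dnajc1 (-0.40).

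Ifit2 was also compared between cells with and without a read of the genes that name reference types of SOM cells. For Hpse, which cuts heparan sulfate, the mean was 7.23 in 23 S1 L4 cells with an Hpse read and 6.13 in 11 without, and in V1 L4 it was 3.57 in 22 with and 3.02 in 20 without. V1 L4 cells with and without a read of Calb2, the calretinin gene, had means of 3.40 (20 cells) and 3.22 (22 cells). In S1 L4 the order for Calb2 was the other way, with 6.565 in 5 cells with a read and 6.93 in 29 without. For Cbln4, a synapse organiser, the means were 3.89 in 28 V1 L4 cells with a read and 2.13 in 14 without, and 6.75 in 23 S1 L4 cells with and 7.13 in 11 without. Pdlim5 was read in 2 S1 L4 cells, with a mean of 9.13 against 6.74 in the other 32, and in 13 V1 L4 cells, with 2.76 against 3.55. The L5 groups split into few cells. In V1 L5 the mean of Ifit2 was 6.02 in 5 cells with Cbln4 and 2.70 in 12 without, and 5.29 in 3 with Calb2 and 3.33 in 14 without. In S1 L5 it was 3.96 in 6 cells with Hpse and 5.69 in 10 without. The order of cells with and without a read thus differed between groups for Hpse, Calb2, Cbln4 and Pdlim5, and none of these steps was tested.

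Upstream of the members, the ligands were not read. Of the 21 interferon genes in the table, 20 had no read in any kept cell, Ifnb1 and all Ifna genes among them, and Ifng, the type II interferon, had 9 reads in 1 cell. The receptor subunits were present: Ifnar1 was read in 54, Ifnar2 in 53 and Tyk2 in 41 of the kept cells, and Jak1 in 92.9% to 94.1% of each group. Of the 6 receptor and kinase genes that passed the filter, none differed between areas by 1 or more in L4. In L5, Ifnar1 was higher in S1 by 1.90 (SD 1.49) and Jak2, a kinase of the type II receptor, by 1.62 (SD 1.75).

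Of the 12 STAT and IRF genes, 6 passed the filter. Irf3, which sensors of viral RNA activate, was higher in S1 L4 by 1.54 (SD 1.85), with 3 of 5 days higher. In L5, Irf2 was lower by 1.1 (SD 2.06) and Irf9, as above, higher. Of 15 sensors and adaptors, 2 passed the filter, and Tbk1, the kinase that activates Irf3, was higher in S1 L5 by 2.36 (SD 2.2). The RNA sensors Ddx58 and Ifih1 were read in 5 and 1 cells.

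Beyond the members, most interferon-induced effectors were read in few cells. Of the 64 in the table, 15 had no read at all and 9 passed the filter, among them Ifit1, Ifit2 and Ifit3. Isg15 had 3 reads in 1 S1 L5 cell, Mx1 had 1 read, Oas2 had 1 and Rsad2 had 7 reads in 2 cells. Cmpk2, Rtp4, Pml, Samhd1 and Ifi27 passed the filter and were read in 16, 21, 23, 25 and 27 cells, near the 29 of Irf9. Adar, the RNA-editing enzyme, was read in 96 cells and differed between areas by -0.36 in L4 and 0.05 in L5. Samhd1, a dNTP hydrolase, was higher in S1 L4 by 1.01, far less than its SD of 2.72, and Ifi27 was higher in S1 L5 by 1.06 (SD 2.25).

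In antigen presentation, 7 of 14 genes passed. Psme1, a proteasome activator subunit, was lower in S1 L4 by 2.2 (SD 2.44). In L5, B2m, the light chain of class I molecules, and H2-D1, a heavy chain, were lower in S1 by 1.63 (SD 1.83) and 1.73 (SD 2.22), both on 4 of 4 days. Tapbp and Psmb10 were higher in S1 L5 by 1.47 (SD 0.55) and 1.03 (SD 1.23). Of the negative regulators, Pias3 and Ptpn1 were lower in S1 L5 by 1.40 and 1.11. Over all 30 pathway genes other than members that passed the filter, 2 were higher and 2 lower in S1 L4, with a median difference of -0.13, and 6 were higher and 5 lower in L5, with a median of 0.05. The corresponding medians over all 9993 genes were 0.01 and 0.22. Of those genes, 7.64% were higher and 7.29% lower in S1 L4, and 21.6% were higher and 8.96% lower in S1 L5. In these lists, genes past the 2-fold line in L4 were thus 4 beside the members, in both directions.

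The kept cells had reads of SOM+ interneuron markers and also of genes known from other cells. All 8 SOM interneuron markers were read in every group, and their summed level was at least 1242 CPM in each kept cell, whose total counts ran from 97904 to 3295232. The 10 microglia markers summed to between 0 and 4659 CPM per cell, with medians of 213 for S1 L4, 138.3 for V1 L4, 58.0 for S1 L5 and 29.4 for V1 L5. All 10 were read in each group except that P2ry12 was at 0 in S1 L5. Of the 9 that passed the filter, none differed between areas by 1 or more in L4, beside 7.64% of all genes higher and 7.29% lower. In L5, 5 were lower in S1, beside 8.96% of all genes. Ifit2 had r = 0.11 and 0.12 with the microglia sum in V1 L4 and S1 L4, and -0.16 for the S1 cells and 0.58 for the V1 cells of L5. The endothelial and mural markers were near 0, with a read in 6 S1 L4, 5 V1 L4, 2 S1 L5 and 2 V1 L5 cells, and Ly6c1 at 0 in every group.

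Some oligodendrocyte markers were higher in S1, as Ifit2 was. Of the 6, 4 passed the filter and 3 of these were higher in S1 by 1 or more in each layer, among them Mbp (2.11 in L4, SD 2.39) and Mobp (2.22, SD 1.69). Of all genes, 7.64% were higher by as much in L4 and 21.6% in L5. Cnp, also a myelin gene, differed by 0.01 in L4 and 0.98 in L5. Their list summed to a median of 156 CPM (0 to 3717) in V1 L4 and 644 CPM (0 to 9702) in S1 L4, with Mag at 0 in V1 L4 and Mog at 0 in V1 L5. Within V1 L4 and S1 L4, r of Ifit2 with this sum was 0.02 and 0.19. Among the L4 cells without an Mbp read, 8 in S1 and 11 in V1, 5 in each area had an Ifit2 read. Their means of 5.75 in S1 and 3.67 in V1, over all cells without an Mbp read, differed by 2.08, less than the 3.57 over all kept cells. For Ifit1 the same cells gave 3.54 against 2.46 over all kept cells, and for Ifit3 1.81 against 0.51. For Stat2 they gave 1.14 against 0.97, and for Irf9 0.25 against -0.23. No SD over days was computed for these cells. This subset was chosen after the values were seen, and the part of oligodendrocyte reads in the Ifit2 difference was not tested. The median total was 1.20e+06 counts in S1 L4 and 1.02e+06 in V1 L4. Over 73 L4 cells, centred on area and day, Ifit2 had r = 0.34 with the log10 of the total. After thinning to 250000 reads its L4 difference was 3.67. The part of depth in it was not tested.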

How the data were processed

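Single SOM+ cells were collected after patch recording in acute slices, and their cDNA was amplified after the Smart-seq2 method, with no molecular identifiers, so reads were not collapsed to molecules. The authors demultiplexed with bcl2fastq 2.20 and aligned single-end reads to mm10 with STAR 2.4.2a. The authors deposited read counts per RefSeq gene, and the deposited RPKM values are scaled to transcript length and library size. cDNA below a minimum yield was not sequenced, so weak aspirates are missing.

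From the counts, symbols that occur in several entries (279) were summed and log2(CPM + 1) was computed with each cell's total, using Python 3.11.15, NumPy 2.4.6, pandas 2.3.3 and SciPy 1.17.1. A pseudocount of 1 CPM understates differences of low genes. Cells were grouped by labelled area and layer, and the date in the title gave the day. A gene was counted as higher or lower when group means differed by 1 or more on this scale. A gene passed the filter with at least 32 reads in at least 10 kept cells, which 5 of the 7 members did. Differences within days used days with at least 2 cells of both groups. Shares have exact Clopper-Pearson intervals at 95%, and a count of 0 was taken to allow 3. Total counts ran from 97904 to 3295232 per kept cell. Named genes were the members, the cluster's other genes, list genes past the filter and the 2-fold line, the type name genes, and the 5 genes of highest and 3 of lowest r with Ifit2; other list genes are named as examples chosen after their values were seen. On simulated data only the S1 minus V1 difference in L4 and the centring before correlation were checked. The simulated counts carried no day or animal effect. Alternatives included TMM scaling (edgeR 4.0.16 in R 4.3.3), RPKM, other pseudocounts, thinning to 250000 reads, other cell filters and leaving out each day. The members and gene lists were chosen with earlier results of these data known. Some genes of the lists are not reported here by name.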

Additional observations from a re-analysis of the deposited data

Results flagged for a closer look

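Reads of the members were also present in cells that the filters left out, which enter no comparison. The left-out V1 L5 cell of day 5, with more Slc17a7 than Gad1 and Gad2 reads, held 65 reads of Ifit2, 12 of Irf9 and 82 of Stat2. A left-out S1 L4 cell of day 5 without an Sst read held 57 reads of Ifit2 and 28 of Bst2, and one of day 3 held 21 reads of Irf9. No outlier was looked for among cells, since each area and layer counted as 1 sample.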

How the results depend on the processing

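The S1 minus V1 difference of Ifit2 in L4 lay between 1.89 (first run only) and 7.14 (median over cells) over 23 alternatives, positive in each. In L5 it was 4.47 by the median over cells and 6.43 in cells without an Mbp read (1 S1 cell and 4 V1 cells). The layer difference of Ifit2 in S1 was 2.65 in cells without an Mbp read. In V1 it was 0.32 after thinning, -3.79 without an Mbp read, 1.29 as the mean within days, -2.14 by the median over cells, and between -0.73 and 0.58 with 1 day left out, so its sign changed with the setting. The share of S1 L4 cells with an Ifit2 read was 100% in the second run alone. The count of members at least 2-fold higher in S1 L5 was 1 on log2(RPKM + 1), 0 with a pseudocount of 10 CPM, and 1 to 3 with a day left out. Differences past the 2-fold line that turned sign were Irf9 between areas in L5 (-1.35 in cells without an Mbp read) and Ifit3 between layers in V1 (-0.44 within days). The cause was not tested. The settings without an Mbp read were chosen after seeing the data. Of 444 for the other members, 400 stayed within the limits set, 42 moved and these 2 turned sign. Depth limits Irf7 and Bst2, at which differences in so few cells cannot be seen, and the lack of labelled animals limits every comparison. Pairing was by day, in the differences within days; replicate numbers only name cells and pair nothing.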

Other observations

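Ifit2 was also set beside 2 calcium-binding protein genes that divide cortical interneurons. In L4 of S1 its mean was 7.58 log2(CPM + 1) in 18 cells with a read of Pvalb, the parvalbumin gene of fast-spiking cells, and 6.08 in 16 without. In V1 L4 the order was the other way, with 2.86 in 10 cells with Pvalb and 3.44 in 32 without. For Calb1, the calbindin gene, cells with a read had the lower mean in L4 of both areas: 6.45 in 14 and 7.18 in 20 S1 cells, and 2.80 in 32 and 4.92 in 10 V1 cells. The genes were picked after their values were seen, and no difference was tested.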
